A study of Mus musculus with 20 samples.

Results

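Collagen is folded in the endoplasmic reticulum before a fibroblast secretes it, and 10 genes of that step and of the stress response that guards it were followed here. The genes form a list chosen by their known roles, with no threshold on these counts but with earlier results of these data known. They are *Serpinh1*, *P4ha1*, *P4ha2*, *P4ha3*, *Hspa5*, *Hsp90b1*, *Ddit3*, *Atf4*, *Xbp1* and *Creb3l1*. All 10 were found among the 51826 genes of the count table and all 10 were among the 20407 genes tested. The counts come from bulk RNA sequencing of 20 libraries of primary renal myofibroblasts, in 4 groups of 5, from C57BL/6J mice. The groups were WT untreated, WT treated with TGFb1, WWP2-/- (labelled KO) untreated and WWP2-/- treated with TGFb1. WT and WWP2-/- mice were littermates from heterozygous crosses, and the cells grew out of minced kidney pieces and were used at the second passage. WWP2 is a ubiquitin ligase, the WWP2-/- line is a constitutive mutant and not one restricted to a cell type, and TGFb1 is the cytokine that drives fibroblasts towards matrix production. The dose and the duration of TGFb1 are stated in the study's text but not in the labels, and the labels do not say whether libraries with the same number came from the same culture, so *P* values measure only the spread between these libraries.

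The fibrillar collagens enter the endoplasmic reticulum as single chains. Prolyl 4-hydroxylases, whose catalytic subunits are encoded by *P4ha1*, *P4ha2* and *P4ha3*, hydroxylate their prolines so that the triple helix is stable, and HSP47, the product of *Serpinh1*, binds the helix and accompanies it towards the Golgi. BiP (*Hspa5*) and GRP94 (*Hsp90b1*) are general chaperones of the same compartment. When unfolded proteins build up, the kinase PERK raises translation of ATF4, which activates *Ddit3* (CHOP), while IRE1 splices the *Xbp1* transcript, and CREB3L1 (OASIS) is a membrane-bound factor cleaved in transit that acts on collagen genes. Counts per gene do not separate spliced from unspliced *Xbp1*, and they do not measure translation of *Atf4*.

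BiP and GRP94 are textbook targets of the unfolded protein response, and their promoters are shown because both hold the ER stress response element (ERSE) in full. This element was searched as CCAAT, 9 bases of any kind, then CCACG, on both strands, in the 250 bases before the RefSeq start of each gene. Capitals mark its CCAAT and CCACG parts, or their complements where it lies on the other strand, and sequences run 5′ to 3′ on the strand of the gene. They are from RefSeq on GRCm38.p6, at chr2:34771840-34772089 on the plus strand for *Hspa5*, chr10:86705445-86705694 on the minus strand for *Hsp90b1* and chr7:99353240-99353489 on the minus strand for *Serpinh1*, which held no ERSE and is printed for contrast.
Hspa5: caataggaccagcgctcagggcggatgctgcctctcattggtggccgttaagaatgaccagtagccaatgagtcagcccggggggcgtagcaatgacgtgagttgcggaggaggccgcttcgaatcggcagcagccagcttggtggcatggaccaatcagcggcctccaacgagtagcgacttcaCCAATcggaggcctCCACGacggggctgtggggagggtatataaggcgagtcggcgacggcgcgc
Hsp90b1: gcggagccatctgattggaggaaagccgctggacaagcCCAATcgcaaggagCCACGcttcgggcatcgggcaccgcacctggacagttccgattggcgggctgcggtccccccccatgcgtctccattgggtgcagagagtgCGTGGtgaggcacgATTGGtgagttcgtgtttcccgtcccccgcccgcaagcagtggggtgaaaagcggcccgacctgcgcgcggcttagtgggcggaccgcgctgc
Serpinh1: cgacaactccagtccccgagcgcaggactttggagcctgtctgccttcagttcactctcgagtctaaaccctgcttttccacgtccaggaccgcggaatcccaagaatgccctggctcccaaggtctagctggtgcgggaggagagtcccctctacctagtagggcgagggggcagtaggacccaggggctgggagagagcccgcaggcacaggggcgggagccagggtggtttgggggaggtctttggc

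A promoter of this kind was matched for 9 of the 10 genes, all but *Creb3l1*. The ERSE was in 2 of the 9, once in *Hspa5*, 65 to 47 bases before the start, and 2 times in *Hsp90b1*, at 212 to 194 bases and on the other strand at 107 to 89 bases. Among 32851 promoters of the same length it was in 37, or 0.113%. The shorter letters of which it is made were common, with CCACG in 6 of 9 members and 28.3% of promoters and CCAAT in 4 of 9 and 33.8%. The letters TGACGTGG (UPRE), TGACGTCA (CRE) and TGATGCAA (a site type bound by ATF4) were in none of the 9, and in 0.563%, 1.55% and 0.791% of promoters. These are matches of letters in one window, and a missing match says only that the letters are not in that window.

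Before the results, the libraries themselves were compared. They held 47520759 to 73063697 counts (median 55863325), and no pair was identical. *Wwp2* itself was 49.99 to 59.9 CPM (counts scaled to a common library total, normalized by TMM) in the WT libraries and 17.0 to 22.7 CPM in the WWP2-/- libraries, which follows the labels but leaves transcript reads in the knockout. The fibroblast markers were present in all libraries, with a summed level over 10 markers of 4649 to 33960 CPM in WT and 4293 to 13210 CPM in WWP2-/- libraries. Among WWP2-/- libraries, untreated replicate 3 and TGFb1-treated replicate 1 stood apart, with 38.9 and 50.4 CPM of *Acta2* (smooth muscle actin, the usual myofibroblast marker) against at least 1016 CPM in the other 18. *Xist*, the RNA made by the silenced X chromosome in females, reached 1 CPM in 4 of 5 untreated WT, 4 of 5 TGFb1-treated WT, 2 of 5 untreated WWP2-/- and 1 of 5 TGFb1-treated WWP2-/- libraries, and the labels give no sex. The Y-linked transcript *Ddx3y* was at 0 CPM in both *Acta2*-low libraries and at 90.9 to 166 CPM in the other 8 WWP2-/- libraries. *Xist* and *Ddx3y* were both above 1 CPM in 5 libraries, untreated WT replicates 1, 2 and 5, TGFb1-treated WT replicate 1 and untreated WWP2-/- replicate 1. The sum of 10 macrophage markers was 80.5 to 449 CPM in TGFb1-treated WT and 89.4 to 3550 CPM in TGFb1-treated WWP2-/- libraries, and the sum of tubular markers was 39.3 to 204 CPM and 17.6 to 555 CPM. In bulk RNA, fewer cells of a type and less RNA per cell cannot be told apart.

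Compared per kilobase of exon, which allows levels of different genes to be set side by side, *Serpinh1* had the highest level of the 10 in each group. Its mean ± SD (n = 5 in each group) was 726 ± 165 CPM per kilobase in untreated WT, 939 ± 232 in TGFb1-treated WT, 473 ± 111 in untreated WWP2-/- and 474 ± 110 in TGFb1-treated WWP2-/- cells. *Hspa5* and *Hsp90b1* came next, at 237 and 193 CPM per kilobase in untreated WT. *P4ha3* was lowest, at 9.27 CPM per kilobase in untreated WT and 2.43 in untreated WWP2-/- cells, and *P4ha1* led the 3 prolyl hydroxylase subunits in all 4 groups. The smallest count of any member in any library was 120, so no member was near the limit that a count of 0 allows (3 counts, 0.0613 CPM in the shallowest library, counting error only).

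The WT libraries without *Xist* were the lowest of their groups for all 10 members, untreated replicate 4 among untreated and replicate 3 among TGFb1-treated WT libraries. Both were lowest in this way for 18.5% of all genes. *Hspa5*, for example, was at 715 CPM in the former against 995 to 1154 CPM in the other 4, and at 739 CPM in the latter against 1145 to 1424 CPM. These libraries also had the highest macrophage sums of their groups (3978 and 449 CPM) and the highest tubular sums (428.5 and 203.5 CPM). Each group holds 1 such library, so *Xist*, these markers and whatever else is particular to that culture cannot be told apart.

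**Figure D1:**
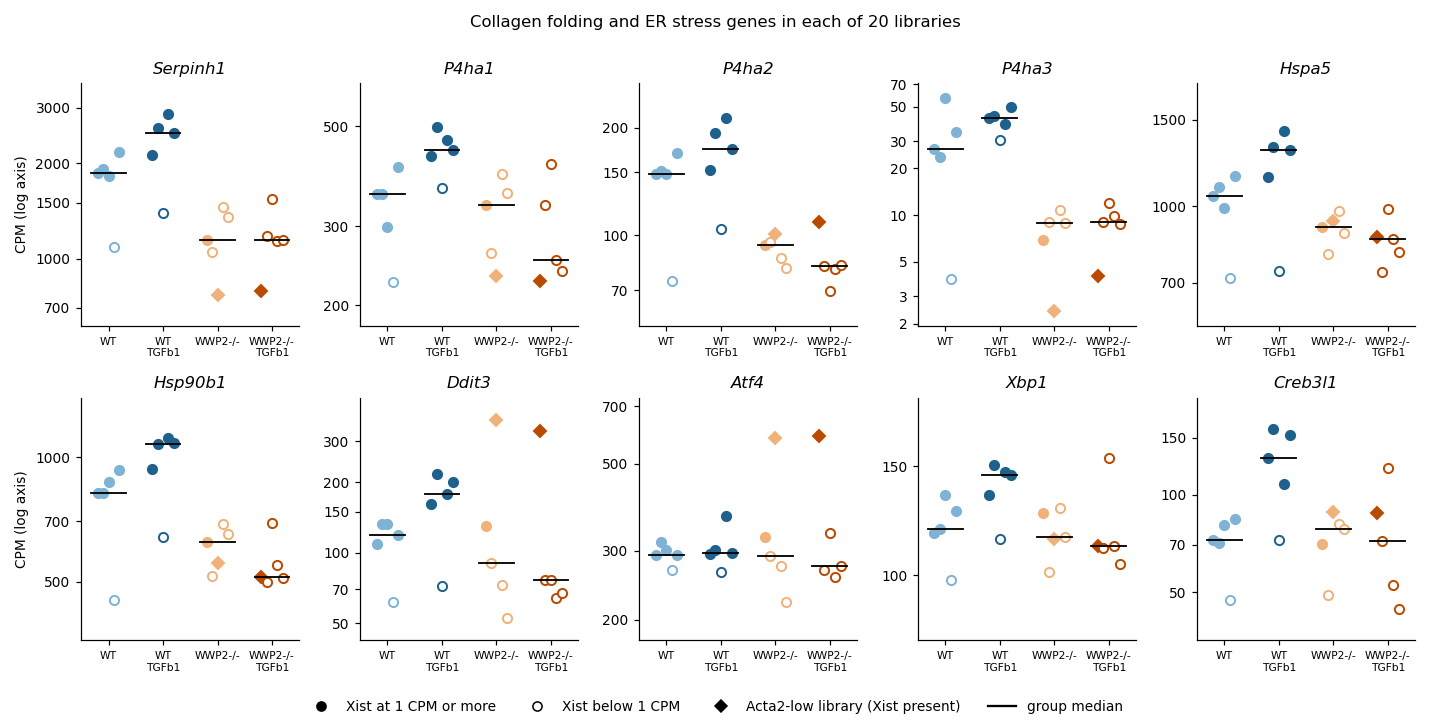
CPM (normalized by TMM, log axis) of each of the 10 genes in each library, by group; circles are libraries (open where *Xist* is below 1 CPM), diamonds the *Acta2*-low ones and lines group medians. *P4ha3* in TGFb1-treated cells is at 30.4 to 49.6 CPM in WT and 4.08 to 11.98 CPM in WWP2-/- libraries, and *Ddit3* and *Atf4* each have 1 high library in each WWP2-/- group.

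The main question for these genes was whether WWP2 deficiency changed them in cells treated with TGFb1. In that comparison *Serpinh1*, *P4ha2*, *P4ha3* and *Hsp90b1* were lower in WWP2-/- cells, none was higher, and the other 6 did not pass the test. The 4 of 10 called lower compare with 3.96% of all genes tested called lower, and 6.07% called in either direction (edgeR's quasi-likelihood test, Benjamini–Hochberg adjusted *P* under 0.05 over all genes). DESeq2 called 6 of the 10, adding *P4ha1* (adjusted *P* = 0.0399) and *Hspa5* (adjusted *P* = 0.0378), and 2672 of the 20407 genes. The median log2 fold change of the 10 was −0.65, with 9 of 10 negative, against a median of 0.05 and 44.84% negative over all genes. The 10 were chosen with earlier results of these data known, so these shares describe them and are not a test.

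*P4ha3*, a catalytic subunit of prolyl 4-hydroxylase, showed the largest difference of the 10. In TGFb1-treated WT libraries 1 to 5 it was at 42.2, 43.8, 30.4, 38.6 and 49.6 CPM, and in TGFb1-treated WWP2-/- libraries 1 to 5 at 4.08, 9.05, 11.98, 9.88 and 8.79 CPM. The groups did not overlap, and *P4ha3* was the only member of the 10 for which this held, where 3.08% of all genes were lower without overlap. The log2 fold change was −2.22 (SE 0.489, adjusted *P* = 0.0149 by edgeR), which is 4.67-fold lower.

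*P4ha2* encodes another subunit of the same enzyme. It was at 152, 193, 104, 213 and 174 CPM in the 5 TGFb1-treated WT libraries and at 109, 82.0, 69.7, 80.5 and 82.5 CPM in the 5 WWP2-/- libraries. The overlap came from WT replicate 3, which lay below WWP2-/- replicate 1. The log2 fold change was −0.98 (SE 0.199, adjusted *P* = 0.0121 by edgeR), or 1.98-fold lower. *P4ha1* had the smallest difference of the 3 subunits, with means of 441 ± 49.8 and 293 ± 78.9 CPM (SD, n = 5 each). Its log2 fold change was −0.59 with an adjusted *P* of 0.0678 by edgeR, which did not pass.

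*Serpinh1*, the collagen-specific chaperone, was at 2120, 2585, 1398, 2867 and 2496 CPM in the 5 TGFb1-treated WT libraries. In the 5 WWP2-/- libraries it was at 788, 1177, 1547, 1135 and 1145 CPM. WT replicate 3 and WWP2-/- replicate 3 overlapped and the other 4 against 4 did not. The log2 fold change was −0.98 (SE 0.232, adjusted *P* = 0.0200 by edgeR), or 1.98-fold lower. Adding *Xist* as a covariate ended the call (−0.96, adjusted *P* = 0.0653), as did a fit of only the groups compared (−0.99, adjusted *P* = 0.0622). It was also lost without 1 of TGFb1-treated WT replicates 2, 4 or 5 (−0.96, −0.88 and −0.97, adjusted *P* = 0.059, 0.0583 and 0.0535) or WWP2-/- replicate 4 (−0.99, adjusted *P* = 0.0511).

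*Hsp90b1* encodes GRP94, which shares its compartment with BiP. It was at 938, 1074, 643, 1114 and 1084 CPM in the 5 TGFb1-treated WT libraries and at 515, 499, 693, 549 and 511 CPM in the 5 WWP2-/- libraries. Again replicate 3 of both genotypes made the overlap. The log2 fold change was −0.81 (SE 0.184, adjusted *P* = 0.0169 by edgeR), or 1.75-fold lower, and with *Xist* as a covariate it was −0.60 with an adjusted *P* of 0.0866. Without 1 of WT replicates 2, 4 or 5 it was −0.79, −0.745 and −0.79 with adjusted *P* of 0.0514, 0.0507 and 0.0504. *Hspa5* (BiP) went from 1186 ± 269 to 852 ± 93.2 CPM, a log2 fold change of −0.48 that did not pass (adjusted *P* = 0.0829 by edgeR). Of the exon length of *Hsp90b1*, 10.3% is shared with the gene model 1810014B01Rik, and whether counting used strand is not given in the sources used here.

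**Figure D2:**
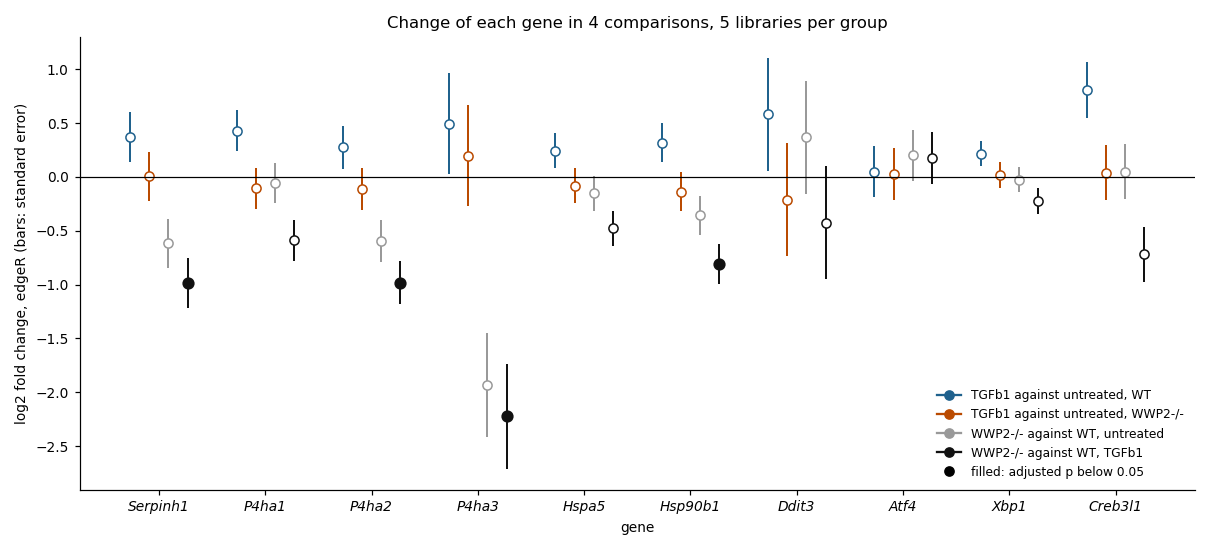
Log2 fold change of each of the 10 genes with its standard error (vertical axis) in the 4 comparisons of groups, from edgeR with all 20 libraries; filled points passed an adjusted *P* of 0.05. *Serpinh1*, *P4ha2*, *P4ha3* and *Hsp90b1* are filled in the comparison of genotypes with TGFb1, at −0.98, −0.98, −2.22 and −0.81, and no point is filled in the other 3 comparisons.

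The transcription factors of the stress response gave no call in TGFb1-treated cells. *Creb3l1* was at 130, 160, 72.3, 108 and 153 CPM in WT and at 88.1, 72.0, 121, 52.7 and 44.4 CPM in WWP2-/- libraries, a log2 fold change of −0.72 (SE 0.259, adjusted *P* = 0.0976 by edgeR). *Xbp1* was at 114.5 to 151 CPM in WT and 104 to 155 CPM in WWP2-/- libraries, with a log2 fold change of −0.22 (adjusted *P* = 0.248). *Ddit3* was at 162, 216, 72.0, 179 and 202 CPM in WT and at 333, 76.9, 76.3, 64.2 and 67.7 CPM in WWP2-/- libraries. The 333 CPM belonged to WWP2-/- replicate 1, 1 of the 2 *Acta2*-low libraries, and 4 of 5 WWP2-/- libraries were below 4 of 5 WT libraries. With all libraries the log2 fold change of *Ddit3* was −0.42 (SE 0.525, adjusted *P* = 0.665). Without TGFb1-treated WWP2-/- replicate 1 alone it was −1.24 and did not pass, and it passed in 0 of 20 fits with 1 library left out. Without both *Acta2*-low libraries it was −1.22 and passed (adjusted *P* = 0.0155 by edgeR). The other of these is untreated and outside this comparison. Calls over all genes rose from 1238 of 20407 to 3480 of 20182 without both *Acta2*-low libraries. *Atf4* was at 264.6 to 367.5 CPM in WT and at 590, 267.5, 333.5, 258 and 274 CPM in WWP2-/- libraries, and its fold change turned from 0.18 to −0.11 when those libraries were left out.

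Other features of the libraries moved with the genotype in TGFb1-treated cells, and they are given here beside the calls. With *Xist* as a covariate, *P4ha2* alone of the 10 was called (−0.62, adjusted *P* = 0.0347), and *P4ha3* was −2.31 (adjusted *P* = 0.0503). Among libraries with *Xist*, 4 WT and 1 WWP2-/-, the WWP2-/- library was below all WT for 8 members and above all for 2 (*Ddit3* and *Atf4*), where 31.9% and 31.7% of all genes did so; that library is the *Acta2*-low one. Among libraries without *Xist*, 1 WT and 4 WWP2-/-, all WWP2-/- libraries were below the WT library for *P4ha2* and *P4ha3* and above it for none, where 20.4% and 20.8% of all genes did so. The other 8 members overlapped there, at *Serpinh1* levels of 1398 CPM in WT and 1135 to 1547 CPM in WWP2-/-. All 10 macrophage markers had positive fold changes in WWP2-/- cells, with a median of 2.52 on the log2 scale, none called by edgeR, 10 at an unadjusted *P* under 0.05 and 9 called by DESeq2. All 9 tubular markers tested were positive too, with a median of 2.02, none called by edgeR, 2 at an unadjusted *P* under 0.05 and 2 called by DESeq2. Over all genes 24.67% had an unadjusted *P* under 0.05 by edgeR. Of the 10 fibroblast markers, 9 were negative, with a median of −2.12 and 2 called lower. Those 2 were *Col1a1* and *Col1a2*, which are also counted below among the fibrillar procollagens. Of 8 endothelial markers 2 were called lower, around a median of 0.53. The part of *Xist*, of the *Acta2*-low libraries beyond these values and of a differing share of fibroblasts and other cell types in the calls was not tested.

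Without TGFb1 the same 4 genes had negative fold changes between genotypes, but no member passed. In edgeR 0 of 10 were called, where 0.725% of all genes were. An unadjusted *P* under 0.05 was found for 3 of the 10 and 14.92% of all genes, and DESeq2 called 1 of the 10 (*P4ha3*) and 743 of the 20407 genes. The median of the 10 was −0.10 on the log2 scale against 0.08 over all genes, with 7 of 10 negative against 41.97% of all genes. No member was lower without overlap between the groups, where 1.29% of all genes were.

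*P4ha3* again had the largest value. It was at 26.8, 23.6, 56.8, 3.87 and 34.3 CPM in the 5 untreated WT libraries and at 6.96, 9.01, 2.42, 10.8 and 8.97 CPM in the 5 untreated WWP2-/- libraries. The overlap was WT replicate 4 alone, the untreated WT library without *Xist* and with the highest macrophage sum of the 20 (3978 CPM). The log2 fold change was −1.93 (SE 0.484, adjusted *P* = 0.0788 by edgeR), and without WT replicate 4 it was −2.24 and passed (adjusted *P* = 0.00239), as did *P4ha2* (−0.79, adjusted *P* = 0.0111). Each of these 2 genes passed in only 1 of 20 fits with 1 library left out, and *P4ha3* was −1.56 without WT replicate 3. Calls over all genes rose from 148 to 743 without WT replicate 4.

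*Serpinh1* was at 1861, 1919, 1826, 1092 and 2164 CPM in untreated WT and at 1147, 1049, 767, 1454 and 1359 CPM in untreated WWP2-/- libraries, a log2 fold change of −0.62 (SE 0.231, adjusted *P* = 0.233 by edgeR). Replicate 4 was the lowest WT library for this gene too, and the highest WWP2-/- library. *P4ha2* was at 148, 151, 148, 74.6 and 169 CPM in WT and 93.9, 95.6, 101, 86.5 and 80.7 CPM in WWP2-/- libraries (−0.60, adjusted *P* = 0.178). *Hsp90b1* was at 452 to 932 CPM in WT and 517 to 692 CPM in WWP2-/- libraries (−0.36, adjusted *P* = 0.366). *P4ha1*, *Hspa5*, *Xbp1* and *Creb3l1* lay between −0.15 and 0.05 on the log2 scale, and *Ddit3* and *Atf4* were at 0.37 and 0.20, with standard errors of 0.525 and 0.239.

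Split by *Xist*, the members of the untreated comparison went in different directions. Among libraries with it, 4 WT and 2 WWP2-/-, 5 members were lower in all WWP2-/- libraries and 1 was higher, where 16.1% and 22.5% of all genes were. Among libraries without it, 1 WT and 3 WWP2-/-, no member was lower and 7 were higher, where 25.8% and 21.7% of all genes were. Of the 2 WWP2-/- libraries with *Xist*, replicate 1 had 33.6 CPM of it beside 110 CPM of *Ddx3y*, and replicate 3 is *Acta2*-low. The single WT library without *Xist* is replicate 4, so its own level sets each of those 7 counts.

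TGFb1 itself gave no call among these genes in either genotype. In WT, edgeR called 0 of 10 (0.0% of all genes), 2 had an unadjusted *P* under 0.05 (6.85% of all genes), and DESeq2 called none. All 10 values were positive, where 47.26% of all genes were negative. Their median was 0.34 on the log2 scale against 0.02 over all genes. In the same comparison all 10 macrophage markers were negative (median −2.43, 9 at an unadjusted *P* under 0.05, none called by edgeR or DESeq2), as were 8 of 9 tubular markers (median −2.05), and their part in these values was not tested. *Creb3l1* had the largest difference. It was at 72.3, 70.9, 80.7, 47.3 and 84.3 CPM in the 5 untreated and at 130, 160, 72.3, 108 and 153 CPM in the 5 TGFb1-treated WT libraries, where only treated replicate 3 lay among the untreated values. The log2 fold change was 0.81 (SE 0.259, unadjusted *P* = 0.00579, adjusted *P* = 0.641 by edgeR). *P4ha1* followed, at 225 to 405 CPM untreated and 365 to 499 CPM treated (0.43, unadjusted *P* = 0.0356, adjusted *P* = 0.698).

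In WWP2-/- cells the 10 values lay between −0.21 and 0.20 on the log2 scale, 5 positive and 5 negative, with a median of −0.04. In edgeR 0 of 10 were called (0.0% of all genes), 0 had an unadjusted *P* under 0.05 (3.49% of all genes), and DESeq2 called none. *Serpinh1* was at 1155 ± 270 CPM untreated and 1159 ± 269 CPM treated (SD, n = 5 each), or 0.00 on the log2 scale with an SE of 0.230. A check list of 8 genes known to respond to TGFb1 also gave 0 calls in either genotype.

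Whether the response to TGFb1 differed between genotypes was tested as the interaction, and no member was called. All 10 interaction values were negative, except that *Atf4* (−0.02) turned to 0.01 with DESeq2's size factors. Their median was −0.38 on the log2 scale, and 52.23% of all genes had negative values. By edgeR 1 of 10 had an unadjusted *P* under 0.05 (6.98% of all genes) and 0.0% of all genes were called. DESeq2 called none of the 10. All 10 macrophage markers had positive interaction values (median 3.33, 9 at an unadjusted *P* under 0.05, none called by edgeR or DESeq2) and so did all 9 tubular markers (median 1.76), and their part in the members' values was not tested. That 1 gene was *Creb3l1*, at −0.77 (SE 0.365, unadjusted *P* = 0.0491, adjusted *P* = 0.713 by edgeR).

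Ratios between genes do not depend on the total of a library. Among them 5, from CPM per kilobase of exon, were tested two-sided by exact permutation of 5 libraries against 5. The 252 arrangements allow no *P* below 0.00794. These 5 ratios were chosen after the data were seen. They use genes tested in the same libraries, so their *P* values are not separate from the tests of single genes. Of the summed level per kilobase of the 3 prolyl hydroxylase subunits in TGFb1-treated cells, *P4ha3* took 8.88 ± 1.07% in WT and 3.18 ± 0.90% in WWP2-/- libraries (SD, n = 5 each), with all 5 WWP2-/- libraries below all WT libraries (exact permutation *P* = 0.00794, 0.0794 after adjustment over 20 ratio tests). The shares were 9.44, 8.39, 8.43, 7.71 and 10.4% in WT and 1.76, 2.96, 3.32, 4.07 and 3.79% in WWP2-/-. *P4ha1* took 80.6% in WWP2-/- and 73.1% in WT cells (exact permutation *P* = 0.0159, adjusted 0.0952), and the share of *P4ha2* differed by −1.73 percentage points, less than the SD of either group (exact permutation *P* = 0.532). Single libraries moved that difference from −0.089 without WWP2-/- replicate 3 to −3.57 without the *Acta2*-low replicate 1 (exact permutation *P* = 0.984 and 0.111).

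The chaperone pair was compared in the same way. The level of *Hsp90b1* per 100 of *Hspa5*, both per kilobase, was 86.0, 85.4, 91.3, 82.0 and 87.4 in TGFb1-treated WT libraries and 62.3, 71.2, 73.5, 67.0 and 66.4 in WWP2-/- libraries. The groups did not overlap, with means of 86.4 ± 3.35 and 68.1 ± 4.38 (SD, n = 5 each, exact permutation *P* = 0.00794, adjusted 0.0794). In untreated cells the means were 80.6 and 70.8 (exact permutation *P* = 0.0952).

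*Serpinh1* was also set against its clients, as its level per kilobase per 100 of *Col1a1* plus *Col1a2*, the chains of type I collagen. With TGFb1 the ratio was 144 ± 50.1 in WWP2-/- and 53.4 ± 13.9 in WT cells (SD, n = 5 each, exact permutation *P* = 0.0238, adjusted 0.0952), and 4 of 5 WWP2-/- libraries were above all WT libraries. The exception was WWP2-/- replicate 3, at 60.7. In untreated cells the values were 133 ± 52.8 and 98.6 ± 77.4 (exact permutation *P* = 0.405), with untreated WT replicate 4 at 236. The difference, 34.1, was 68.5 without that library (exact permutation *P* = 0.0159) and 15.5 without WWP2-/- replicate 2 (exact permutation *P* = 0.714). None of the 20 ratio tests passed 0.05 after adjustment, and no test of TGFb1 against untreated had an unadjusted *P* under 0.05.

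**Figure D3:**
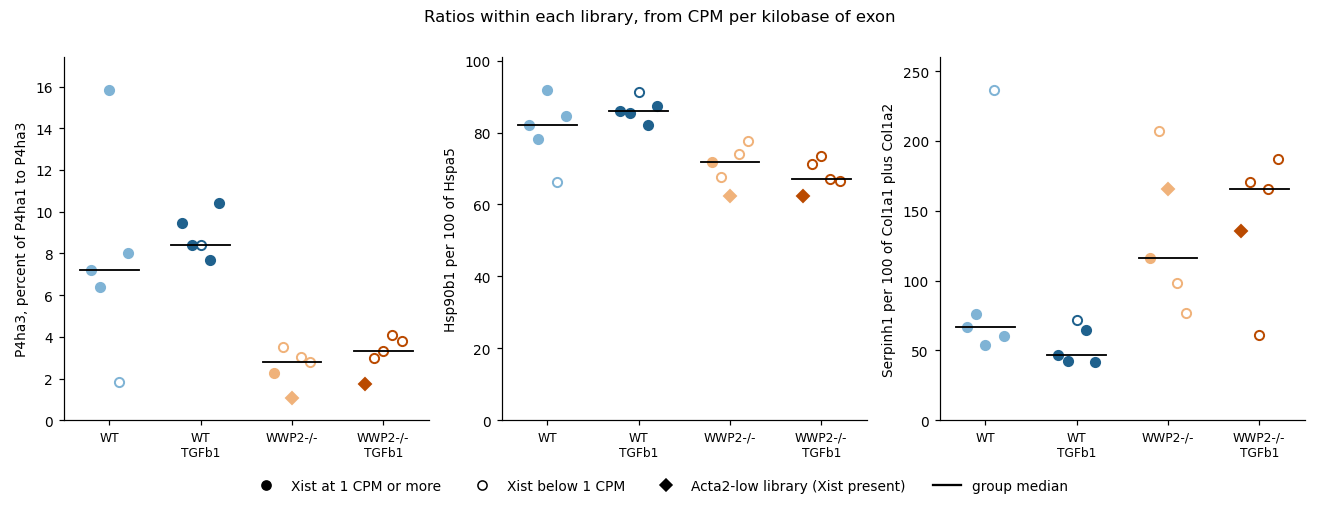
Ratios in each library by group, from CPM per kilobase of exon, as the share of *P4ha3* in the 3 prolyl hydroxylase subunits (percent), *Hsp90b1* per 100 of *Hspa5* and *Serpinh1* per 100 of *Col1a1* plus *Col1a2*; symbols are as in the plot of CPM by library and lines are group medians. With TGFb1 the *P4ha3* share averages 8.88% in WT and 3.18% in WWP2-/- cells without overlap.

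The neighbouring genes of the pathway were read from lists, in the same fits. Among 17 genes of collagen hydroxylation and folding, such as lysyl hydroxylases, prolyl 3-hydroxylases and FKBP isomerases, 1 was lower in WWP2-/- cells with TGFb1 and none was higher. It was *P3h3*, a prolyl 3-hydroxylase family member, at 140 to 174 CPM in WT and 62.8 to 115.5 CPM in WWP2-/- libraries (log2 fold change −1.03, adjusted *P* = 0.0251 by edgeR). With *Xist* as a covariate it was −0.66 and no longer passed (adjusted *P* = 0.0569). The share of all genes called lower was 3.96%. The list's median was −0.37 with 15 of 17 negative. Of 5 fibrillar procollagen chains, 3 were lower, *Col1a2* (−2.63, adjusted *P* = 0.0142), *Col1a1* (−1.98, adjusted *P* = 0.0492) and *Col5a2* (−1.68, adjusted *P* = 0.0206), and with *Xist* as a covariate none of the 5 was called.

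Among 28 chaperones and degradation factors of the endoplasmic reticulum, 2 were lower and none higher, with a median of −0.18 and 21 negative, beside 3.96% of all genes called lower and 44.84% negative. These were *Derl3*, a degradation factor at 0.98 to 1.36 CPM in WT and 0.32 to 0.71 CPM in WWP2-/- libraries (−1.14, adjusted *P* = 0.0301), and *Pdia6*, a disulfide isomerase at 301 to 589 CPM in WT and 245 to 323 CPM in WWP2-/- libraries (−0.68, adjusted *P* = 0.0340 by edgeR). Of 15 procollagen export genes of the COPII coat and TANGO1 family, edgeR called none, 6 had an unadjusted *P* under 0.05 and DESeq2 called 3, around a median of −0.01. Of 15 sensors and regulators of the unfolded protein response, edgeR called none, 5 had an unadjusted *P* under 0.05 and DESeq2 called none, around a median of −0.04. Of 36 targets of ATF4 and CHOP, 1 was lower, the lipoprotein receptor *Vldlr* (−0.89, adjusted *P* = 0.0230 by edgeR), and none was higher, with a median of 0.19. *Vldlr* was lost with *Xist* as a covariate (−0.59, adjusted *P* = 0.117), as was *Pdia6* (−0.61, adjusted *P* = 0.103). The median over all genes in this comparison was 0.05, and 24.67% of all genes had an unadjusted *P* under 0.05 by edgeR.

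Those list calls were not all stable. When each of the 20 libraries was left out in turn, *Col1a2* passed in 20 fits, *Vldlr* in 16, *Derl3* and *Col5a2* in 15, *P3h3* in 14, *Pdia6* in 12 and *Col1a1* in 4, with negative values throughout. For *P3h3*, *Derl3*, *Pdia6*, *Vldlr* and *Col5a2* the libraries that decided a call were TGFb1-treated WT replicates 1, 2, 4 and 5, untreated WWP2-/- replicate 1 and TGFb1-treated WWP2-/- replicates 2, 4 and 5. Without them the adjusted *P* was between 0.0513 and 0.0999. For *Col1a1* it was between 0.0538 and 0.111 without any 1 of 16 libraries. In untreated cells 1 gene of the 6 lists was called, *Col5a2* (−1.74, adjusted *P* = 0.0494 by edgeR), at 1830 ± 773 CPM in WT and 546 ± 85.4 CPM in WWP2-/- libraries (SD, n = 5 each). This call was lost without any 1 of 16 libraries, at an adjusted *P* of 0.051 to 0.159 and log2 fold changes of −1.62 to −1.83. No gene of the lists was called for TGFb1 in either genotype.

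**Figure D4:**
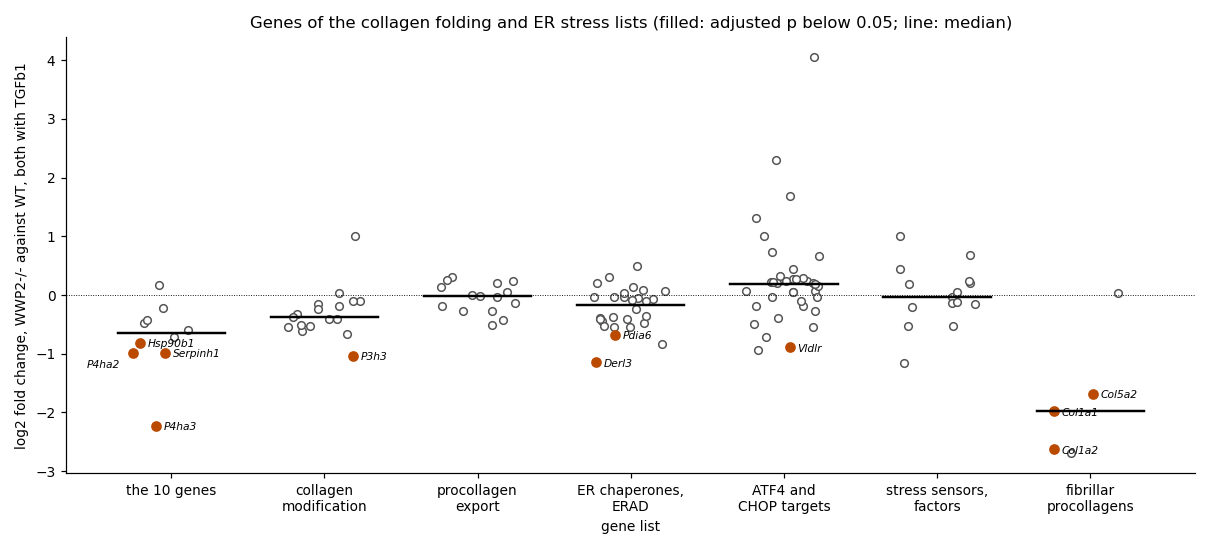
Log2 fold change (vertical axis) of each gene of the 6 pathway lists and of the 10 members between WWP2-/- and WT cells with TGFb1; lines mark the median of each list and filled points passed an adjusted *P* of 0.05. The medians are −1.98 for fibrillar procollagens, −0.65 for the members, −0.37 for hydroxylation and folding and 0.19 for targets of ATF4 and CHOP.

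The *Acta2*-low WWP2-/- libraries, untreated replicate 3 and TGFb1-treated replicate 1, carried the highest *Ddit3* and *Atf4* of all 20. *Ddit3* was at 369 and 333 CPM there, against 52.8 to 131 CPM and 64.2 to 76.9 CPM in the other 4 libraries of their groups, and *Atf4* was at 582 and 590 CPM against 222 to 324 and 258 to 333.5 CPM. Differences from the mean of the other 4 were 2.14 and 2.20 for *Ddit3* and 1.08 and 1.06 for *Atf4*, on the scale of log2(CPM + 2). These libraries were singled out by *Acta2*, with 1 library in each group, so the values are descriptions without a test.

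The folding genes in those libraries went elsewhere. *Serpinh1* (−0.69 and −0.65), *P4ha1* (−0.51 and −0.41) and *P4ha3* (−1.30 and −0.97) were below the other 4 libraries of both groups, *P4ha2* (0.18 and 0.46) was above them, and *Hspa5*, *Hsp90b1*, *Xbp1* and *Creb3l1* lay within their range in at least 1 group. That made 3 of 10 members above and 3 below in both groups, where 26.3% of all genes were above and 26.3% below. Of 9 tubular markers 7 were below in both, as were 7 of 10 macrophage and 6 of 8 endothelial markers. Of 10 fibroblast markers 4 were above and 4 below in both. Among them *Dcn* was at 5.07 and 6.41 and *Vim* at −1.77 and −1.56 on the log2 scale. The part of these features in the values here was not tested. Of the 36 targets of ATF4 and CHOP, 24 (66.7%) were above and 1 was below, *Gdf15* (−2.76 and −3.18). Among them *Slc7a11*, the cystine transporter, was 4.18 and 4.59 above on the log2 scale, *Chac1*, which degrades glutathione, 2.47 and 2.48, *Trib3*, a pseudokinase that feeds back on the pathway, 2.20 and 1.90, and *Asns*, asparagine synthetase, 1.42 and 1.44. Of 15 sensors and regulators of the unfolded protein response 9 were above and 2 below, with *Ern1*, which encodes IRE1, at 2.32 and 2.31. The 2 below were *Eif2ak3*, which encodes PERK, at −1.38 and −1.65, and *Creb3l2* at −1.06 and −0.95. Of the 28 chaperones and degradation factors 7 were above and 7 below, and of the 17 hydroxylation and folding genes 3 were above and 6 below, with *Tmem38b* (an ER potassium channel) at 1.63 and 1.81 and *Plod2*, the telopeptide lysyl hydroxylase, at −1.82 and −1.82. The genes of these examples were picked after their values were seen.

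*Ddit3* shares 68 of 1713 exon bases (3.97%) with *Mars*, the methionyl-tRNA synthetase gene on the other strand. *Mars* was at 140 and 159 CPM in the *Acta2*-low libraries, the highest of their groups, whose medians were 97.5 and 101 CPM. In the WT libraries it was at 83.0 to 103 CPM. How many reads fell in the shared bases was not measured.

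**Figure D5:**
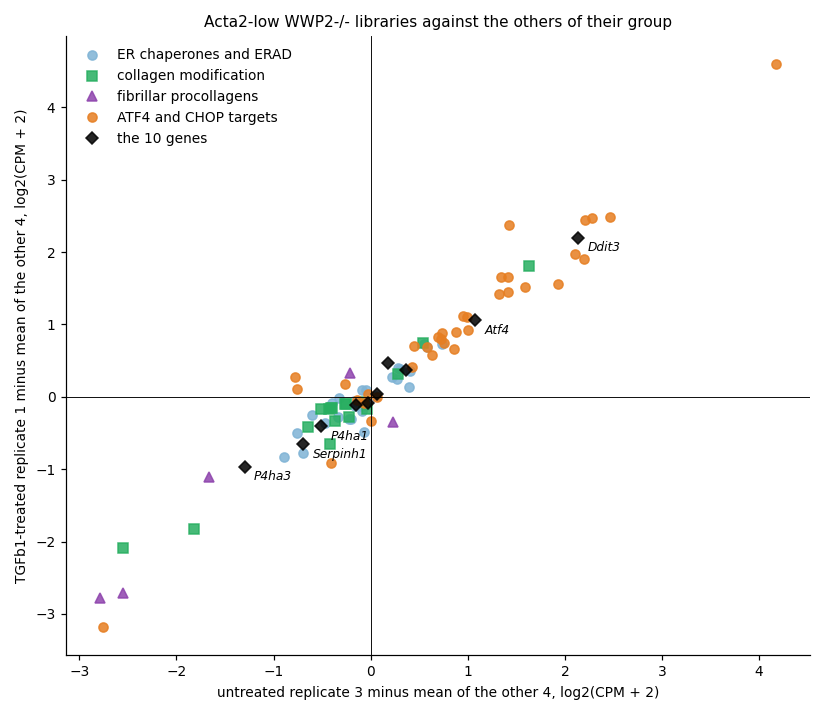
Difference of each *Acta2*-low WWP2-/- library from the mean of the other 4 libraries of its group on the scale of log2(CPM + 2), untreated replicate 3 on the horizontal and TGFb1-treated replicate 1 on the vertical axis; symbols are the 10 members and the genes of 4 lists (chaperones and degradation factors, collagen modification, fibrillar procollagens, targets of ATF4 and CHOP). *Ddit3* lies at 2.14 and 2.20, *Atf4* at 1.08 and 1.06, and *Serpinh1* at −0.69 and −0.65.

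Across the 20 libraries the members varied in groups, described here by Pearson correlations of log2(CPM + 2) without a test, since the libraries share genotype, treatment and the features above. *Serpinh1* and *Hsp90b1* had *r* = 0.935, *Hspa5* and *Hsp90b1* 0.933, and *Xbp1* and *Creb3l1* 0.875. *Ddit3* and *Atf4* had *r* = 0.829, which was 0.685 in the 18 libraries left without the *Acta2*-low ones. *Ddit3* against *Serpinh1* moved the other way, from 0.094 with 20 libraries to 0.819 with 18, and against *Hspa5* from 0.530 to 0.838.

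The genes most alike to 3 of the members were taken from 9714 genes with a mean of at least 10 CPM. For *Serpinh1* they were *Lbh* (*r* = 0.980), *Fscn1*, *Chfr*, *Pex19* and *Sh3gl1*, and the last had *r* = 0.961. For *Hspa5* they were *Abcg2* (0.964), *C1qtnf6*, *Etfbkmt*, *Hsp90b1* and *Snx4* (0.928). For *Ddit3* they were *Lonp1* (0.970), *Igf2bp2*, *Mmp3*, *B2m* and *Slc16a1* (0.954), and in the 18 libraries these 5 had *r* between 0.917 and 0.947. No ATF4 or CHOP target of the list was among the 5 most like *Ddit3*.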

How the data were processed

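Poly-A RNA of the 20 libraries was sequenced in paired ends, and the authors used STAR for alignment to GRCm38 and featureCounts for counting over exons (-p, -t exon). The deposited values are raw counts per gene, and totals of 47520759 to 73063697 set their precision. Gene names, positions and exon lengths are from GENCODE M21, also on GRCm38, and promoters from RefSeq. A gene was tested if 5 or more libraries held 5 or more of its counts, and CPM were normalized by TMM. The 4 groups of labels were fitted together in R 4.3.3 with edgeR 4.0.16 (glmQLFit, glmQLFTest; limma 3.58.1) without a block, and *P* values were adjusted over all genes tested (Benjamini–Hochberg, threshold 0.05). DESeq2 1.42.0 was an alternative. Levels on a log scale used a pseudocount of 2 CPM. Permutation tests of ratios used SciPy 1.17.1 in Python 3.11.15. The procedure was tested on simulated counts, drawn independently for each gene and library. They held none of the *Acta2*, *Xist* or marker differences seen here, so that test does not cover them. Genes named are the 10 members, up to 2 called genes per list, comparison and direction (*Col5a2* with TGFb1 is an addition made after its value was seen), and the 5 genes most alike to *Serpinh1*, *Hspa5* and *Ddit3*. Members and lists were chosen with earlier results of these data known. The ratios, the *Acta2*-low and *Xist* exclusions and examples in *Acta2*-low libraries were chosen after seeing the data.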

Additional observations from a re-analysis of the deposited data

Results flagged for a closer look

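Of 40 groups (10 genes in 4 groups of 5 libraries), 8 held a library whose gap to its nearest neighbour was a larger part of the group's range than Dixon's 95% critical value of 0.71, and chance alone marks about 1 in 20 groups. The 10 genes were measured in the same libraries and correlate, so the 40 groups are not independent. The same few libraries recur among the 8. In untreated WT, replicate 4 was low for *P4ha2* (74.62 CPM, the other 4 at 148 to 169) and *Hsp90b1* (451.7 CPM, the others at 819 to 932). In untreated WWP2-/-, replicate 3 was high for *Ddit3* (368.7 CPM, the others at 52.8 to 131) and *Atf4* (581.8 CPM, the others at 222 to 324). In TGFb1-treated WWP2-/-, replicate 1 was high for *Ddit3* (333.2 CPM, the others at 64.2 to 76.9) and *Atf4* (589.6 CPM, the others at 258 to 333.5), and replicate 3 was high for *Hsp90b1* (693.0 CPM, the others at 499 to 549) and *Xbp1* (155.0 CPM, the others at 104 to 112).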

How the results depend on the processing

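Of 1702 alternatives for 58 single-gene results, 1542 kept direction and side of the threshold, 93 lost a call, 20 gained one and 47 changed sign. Most of the 58 were not called in the main fit, and only a called result can lose a call. The share that was kept is therefore not a measure of how stable the calls were. The number of members called between genotypes with TGFb1 (4) was 6 with DESeq2, 3 with only the groups compared, 1 with *Xist* as a covariate, 5 without both *Acta2*-low libraries, 7 without both WT libraries below 1 CPM of *Xist*, 0 at an adjusted *P* of 0.01, and 2 to 7 with 1 library left out (2 without TGFb1-treated WT replicate 2, 4 or 5, 7 without its replicate 3). In untreated cells (0) it was 1 with DESeq2, 4 without both WT libraries below 1 CPM of *Xist* and 0 to 2 with 1 left out (2 without WT replicate 4). Calls over all genes rose in the same settings. With TGFb1 they went from 1238 of 20407 to 3480 of 20182 without the *Acta2*-low libraries and 3322 of 20172 without those WT libraries. Without TGFb1-treated WT replicate 3 they were 2730 of 20304. Untreated calls went from 148 of 20407 to 1136 of 20172 without those WT libraries. The cause of these changes was not tested. With a replicate block, 3 members were called with TGFb1, *Serpinh1* moving to an adjusted *P* of 0.051, *Pdia6* and *Col1a1* of the lists were also lost (adjusted *P* = 0.0719 and 0.0919), and whole-table calls fell from 1238 to 670 with TGFb1 and from 148 to 1 untreated. Same-numbered libraries did not all deviate together (correlations −0.533 to 0.522 between untreated and treated WT, −0.0135 to 0.446 between untreated genotypes, where 4 of 5 libraries correlated best with their own number, −0.495 to 0.165 between treated genotypes and −0.253 to 0.318 between untreated and treated WWP2-/-), so the numbers were not taken as pairs.

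Whole-table calls with TGFb1 (1238) were 790 with no filter, 715 with *Xist*, 2672 with DESeq2, 569 with only the groups compared, 3480 and 3322 without the *Acta2*-low or the WT libraries below 1 CPM of *Xist*, 101 at an adjusted *P* of 0.01 and 453 to 2730 with 1 left out. Untreated calls (148) were 92, 743, 1, 271, 1136 and 1 in the same order of settings from *Xist* on, and 1 to 743 with 1 left out. DESeq2 called 27 genes for TGFb1 in WT, 49 in WWP2-/- and 10 for the interaction, where edgeR called none and 1397, 713 and 1424 had an unadjusted *P* under 0.05, and with 1 left out edgeR called up to 63 for TGFb1 in WWP2-/-. Among the chaperone list 0 genes were called with no filter or only the groups compared, 7 and 12 without those library pairs and 0 to 9 with 1 left out. Among targets of ATF4 and CHOP (1) they were 6 and 5 without those pairs, 3 with DESeq2 and 0 to 5 with 1 left out, and among hydroxylation and folding genes (1) 2 and 5, 2 with DESeq2, 0 with *Xist* and 0 to 4. Both counts were 0 without TGFb1-treated WT replicate 2, among others. The difference in *Serpinh1* per 100 of type I collagen chains in untreated cells ranged over 15.5 to 68.5, and that in the *P4ha2* share with TGFb1 over −3.57 to −0.089.

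The log2 fold changes that changed sign are given with their new values. With *Xist* as a covariate, *Ddit3* was 0.00935 (TGFb1 in WWP2-/-) and 0.335 (genotypes with TGFb1), and in untreated genotypes *Hspa5* was 0.0138 and *Xbp1* 0.0438. Without the *Acta2*-low libraries, untreated genotypes gave *P4ha1* 0.0123, *Ddit3* −0.39, *Atf4* −0.112 and *Creb3l1* −0.0494, and treated genotypes gave *Atf4* −0.109. Untreated *Creb3l1* was −0.0661 without the WT libraries below 1 CPM of *Xist*, and *Creb3l1* for TGFb1 in WWP2-/- was −0.0211 with a replicate block within genotype. The interaction of *Atf4* was 0.0137 with DESeq2's size factors or test, 0.0149 with at least 10 counts, 0.0826 with *Xist* and 0.00277 without the *Acta2*-low libraries.

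With 1 library left out, TGFb1 in WWP2-/- ranged over −0.118 to 0.121 for *Serpinh1*, −0.025 to 0.383 for *P4ha3*, −0.986 to 0.524 for *Ddit3*, −0.242 to 0.321 for *Atf4*, −0.0894 to 0.077 for *Xbp1* and −0.185 to 0.2 for *Creb3l1*. Untreated genotypes ranged over −0.197 to 0.0321 for *P4ha1*, −0.383 to 0.542 for *Ddit3*, −0.108 to 0.288 for *Atf4* and −0.103 to 0.12 for *Creb3l1*. *Atf4* ranged over −0.0431 to 0.0984 for TGFb1 in WT, −0.123 to 0.268 between treated genotypes and −0.291 to 0.272 for the interaction, and *P4ha3* over −0.672 to 0.00621 for the interaction. No difference in a ratio between genotypes changed sign, and the ratios of TGFb1 against untreated were not recomputed with libraries left out.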
